A study of Mus musculus with 4 samples.

Results

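miR-204 and miR-211 are sister microRNAs, each made from an intron of a TRPM cation channel gene. They were followed here in cultured synovial fibroblasts, the cells that line the joint, by taking every listed miRNA whose name without its arm mark is miR-204 or miR-211. The rule found 1 name, miR-204, of 590 names listed in the series, and it was listed in each of the 4 libraries. No entry for miR-211 or for the other arm of either hairpin stood in the tables used here, so miR-211 was not analysed. miR-204 (mmu-miR-204 in the files) was chosen by its reads and mismatch classes in TghuTNF against WT, so its difference between genotypes is described below without a test.

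The tested cultures came from TghuTNF mice, which carry a human TNF transgene and develop arthritis, and the controls from wild-type (WT) littermates, and each genotype had 2 biological replicates according to the series text. All mice were 8 weeks old and of a CBA/J by C57BL/6/J background. Cells were released from the hind joints and used at passage 4, when under 1% were positive for the macrophage marker Mac1 and over 80% for the fibroblast marker CD90.2, per the labels. Small RNA was sequenced, and total matches to miRNAs ranged from 16680860 to 27362819 per library.

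A miRNA guides Argonaute to messenger RNAs chiefly through its seed, bases 2 to 8 counted from the 5′ end, so miRNAs with the same seed share most of their targets. miR-204 is known from the pigment epithelium of the eye, and miR-211 from melanocytes, where it is made together with its host gene Trpm1. In mesenchymal cells both are known to repress Runx2, the master transcription factor of bone formation, and miR-204 favours the adipocyte over the osteoblast fate. In mouse joints, loss of both from mesenchymal progenitors is known to lead to osteoarthritis.

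The mature sequences below show why the pair must be considered together, with the seed in capitals (RefSeq, GRCm38.p6).
miR-204-5p: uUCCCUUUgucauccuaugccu
miR-211-5p: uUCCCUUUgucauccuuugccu
The seeds are identical, and 21 of the 22 bases match. The only difference was A17U, counted from the 5′ end with the base of miR-204 first. Of 1679 mature mouse miRNAs in the RefSeq table, 3 had this seed, the third being miR-7670-3p, a miRNA that was not listed in these libraries.
miR-7670-3p: uUCCCUUUcugaauaucuguaga

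The other arms were less alike, with 14 of 21 bases identical without gaps, and their seeds differed.
miR-204-3p: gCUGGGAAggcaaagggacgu
miR-211-3p: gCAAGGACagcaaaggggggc
The whole hairpins are shown with both arms in capitals, since the arms fix where the reads come from. The loop between the arms was 17 bases in Mir204 and 15 bases in Mir211.
Mir204: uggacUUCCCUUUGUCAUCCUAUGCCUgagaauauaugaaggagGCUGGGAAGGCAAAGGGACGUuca
Mir211: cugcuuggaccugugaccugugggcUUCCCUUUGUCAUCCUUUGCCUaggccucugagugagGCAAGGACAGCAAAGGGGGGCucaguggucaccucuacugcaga

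The hairpins occupy corresponding places in their host genes. Mir204 (GRCm38, chr19:22750605-22750672, plus strand) lies on the strand of Trpm3 and was intronic in all 15 coding transcripts of GENCODE that span it. In the Trpm3 transcript with the most exons, 27, it sat in intron 6, a 33462-base intron, 17433 bases after the preceding exon. Mir211 (chr7:64205806-64205911, plus strand) was intronic in all 8 coding transcripts of Trpm1 that span it. In the Trpm1 transcript with the most exons, also 27, it too sat in intron 6, but that intron has 3682 bases. Mir204 was the 1 miRNA gene annotated within Trpm3. The level of either host transcript was not measured in these small RNA libraries.

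miR-204 was scarce in TghuTNF fibroblasts and several-fold more abundant in WT fibroblasts. It had 29 and 13 reads in TghuTNF replicates 1 and 2, against 98 and 200 reads in WT replicates 1 and 2. As CPM (counts per 1000000 matches) these were 1.06 (exact Poisson 95% interval 0.710 to 1.52) and 0.566 (0.301 to 0.968) in the TghuTNF libraries, and 5.88 (4.77 to 7.16) and 7.54 (6.53 to 8.65) in the WT libraries. Both TghuTNF libraries lay below both WT libraries, and no interval of one genotype reached into the range of the other. The intervals cover counting error only, and not the spread between cultures. No molecular identifiers were used here, so copies of the same molecule could not be told apart.

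**Figure D1:**
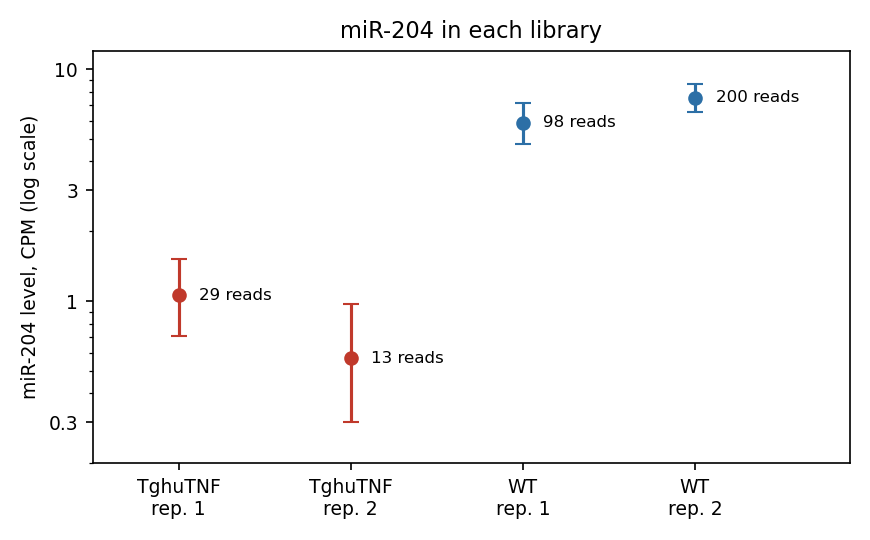
miR-204 level in CPM (log scale) in the 2 TghuTNF and 2 WT libraries, with exact Poisson 95% intervals for counting error as bars and the number of reads beside each point. Both TghuTNF libraries, with 29 and 13 reads, lie below both WT libraries, with 98 and 200 reads.

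After TMM scaling, which corrects for differences in composition between libraries, miR-204 averaged 0.814 ± 0.335 CPM in TghuTNF and 6.66 ± 0.977 CPM in WT (SD, n = 2 each). The fitted log2 fold change was -3.01 ± 0.38 (SE derived from edgeR's F statistic), which is 8.05-fold lower in TghuTNF. No test is read from this SE. The WT replicates differed 1.23-fold and the TghuTNF replicates 1.82-fold, whereas the lower WT library stood 5.68-fold above the higher TghuTNF library. TghuTNF replicate 1 set part of the size: without it the fold was 12.1, and without any other library it was between 6.46 and 8.89. A lower count in a culture can come from fewer cells that make a miRNA or from less of it per cell, and these cannot be told apart here.

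Of the 442 miRNAs tested, 29.9% had both TghuTNF libraries below both WT libraries, as miR-204 did, and edgeR's quasi-likelihood test called 8.6% lower and 4.75% higher in TghuTNF. Nothing is read from these shares about miR-204, which was picked for this contrast. The median log2 fold change of all tested miRNAs was 0.006. miR-204 had the fifth most negative fitted value of the 442.

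In rank, miR-204 was 394th of 556 and 421st of 545 listed miRNAs in TghuTNF replicates 1 and 2, against 286th of 532 and 265th of 541 in WT replicates 1 and 2. In TghuTNF its mean of 0.814 CPM lay between miR-450b-3p, a member of the X-linked miR-322 cluster (0.818 ± 0.278 CPM), and miR-378*, the minor arm of a hairpin in an intron of Ppargc1b (0.802 ± 0.0586 CPM, SD, n = 2 each). The next neighbours there were miR-466k at 0.842 CPM and miR-218-2* at 0.780 CPM. In WT its mean of 6.66 CPM lay between miR-466c-5p (6.70 ± 0.0882 CPM) and miR-382* (6.63 ± 2.06 CPM), with miR-466a-5p at 6.70 CPM and miR-376b at 6.57 CPM next. The gap to each of these neighbours was smaller than the SD of miR-204 itself in that genotype, so the order among them is not resolved.

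The reads listed for miR-204 were mostly exact copies. Perfect matches made up 27 of 29 and 9 of 13 reads in TghuTNF replicates 1 and 2, against 92 of 98 and 194 of 200 in WT replicates 1 and 2. These were 93.1% (exact binomial 95% interval 77.2% to 99.2%) and 69.2% (38.6% to 90.9%) in the TghuTNF libraries. In the WT libraries they were 93.9% (87.1% to 97.7%) and 97.0% (93.6% to 98.9%). TghuTNF replicate 1 was thus close to WT replicate 1, and the low share was that of TghuTNF replicate 2, with 13 reads. Over all libraries 94.7% of the reads of miR-204 were perfect, against a median of 63.8% over the 399 names with at least 100 matches, of which 12 had a higher share. Counting perfect matches alone, miR-204 stood at 1.40 and 0.594 CPM of perfect matches in the TghuTNF libraries, against 7.93 and 10.4 in the WT libraries. The genotypes again did not overlap, and the fitted fold was 9.04.

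The library that stood apart in mismatches was TghuTNF replicate 2. There 4 of the 13 miR-204 reads had 2 mismatches (30.8%, exact binomial 95% interval 9.09% to 61.4%), and over all miRNAs 11.7% of matches did. In TghuTNF replicate 1 this share was 1 of 29 reads, and in WT replicates 1 and 2 it was 4 of 98 and 2 of 200, where 8.21% to 8.73% of all matches had 2 mismatches. The interval for TghuTNF replicate 2 includes the share of its whole library. It lies above the miR-204 shares of TghuTNF replicate 1 (3.45%) and of WT replicates 1 and 2 (4.08% and 1.00%). The intervals of TghuTNF replicate 1 (0.0873% to 17.8%) and WT replicate 1 (1.12% to 10.1%) reach into it. That of WT replicate 2 (0.121% to 3.57%) does not, and excludes the 8.73% of its whole library. The whole-library share is thus not a sure baseline for miR-204. Reads with 1 mismatch numbered 1 and 0 in the TghuTNF libraries, against 2 and 4 in the WT libraries.

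**Figure D2:**
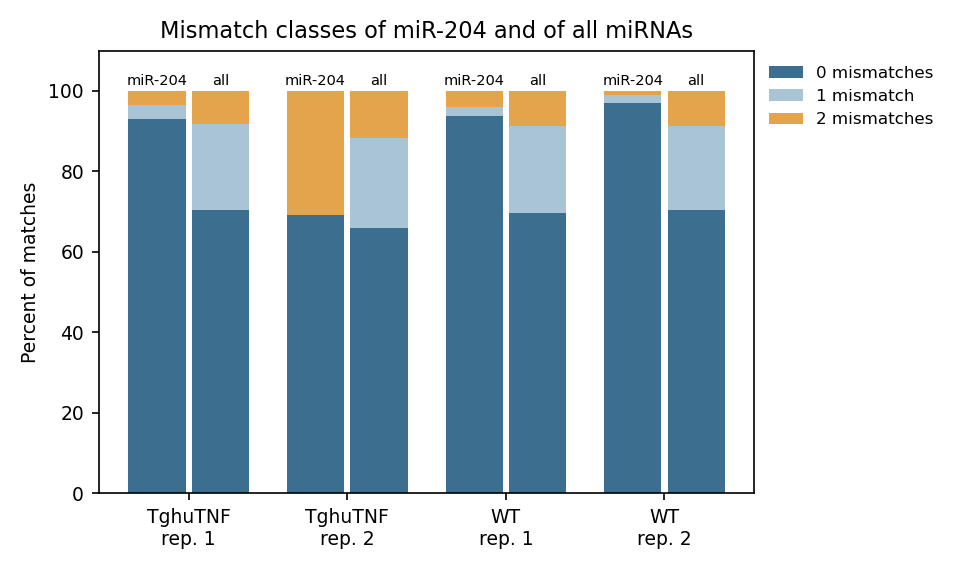
Percent of matches with 0, 1 and 2 mismatches (stacked bars, vertical axis from 0) for miR-204 and for all miRNAs in each TghuTNF and WT library. Perfect matches dominate miR-204 in 3 libraries, and in TghuTNF replicate 2, where 13 reads were counted, 4 had 2 mismatches.

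Whether perfect reads of a miRNA are also counted under a sister's name was examined in other pairs that differ at 1 base. In 14 such pairs with at least 100 perfect matches, the reads of the less abundant partner with 1 or 2 mismatches were divided by the perfect reads of the more abundant one. If every perfect read were also counted for the partner as a mismatched read, this ratio could not be below 1, whereas a ratio of 1 or more does not show how many were. It was at least 1 in every library for 7 of 7 pairs whose differing base is at positions 10 to 13. Of the 7 pairs that differ at position 9 or at positions 16 to 22, it was below 1 in every library for 5. It was at least 1 in every library for 1. The pair at position 9 was below 1 and was grouped with positions 16 to 22. The split therefore describes these 14 pairs and sets no rule by position. Positions are from RefSeq sequences, which may differ in length from those the authors matched.

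The abundant pairs show both patterns. let-7a and let-7f, which differ at position 12, had ratios of 1.26 to 1.34 over the 4 libraries, and miR-30a and miR-30e, which differ at position 13, had 2.16 to 2.34. let-7c and let-7b differ at position 17, the same position as miR-204 and miR-211, and had ratios of 0.121 to 0.164. For let-7c and let-7a, which differ at position 19, the ratio was 0.317 to 0.381, and for let-7a and let-7e, which differ at position 9, it was 0.0356 to 0.0429. miR-103 and miR-107, which differ at position 22 and are named after their values were seen, went the other way: their ratio was 1.04 to 1.06, and 0.151% of the 583090 matches of miR-107 were perfect.

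For a difference at position 17, therefore, perfect reads were not all repeated as mismatched reads under the partner's name in the 1 pair measured. The ratio does not see reads counted as perfect under both names. How reads were shared between miR-204 and miR-211 was not tested. An exact miR-211 read compared with miR-204 at base 17 would be a mismatch, so it would not be among the perfect matches. Reads of miR-204 with 1 mismatch numbered 1 and 0 in the TghuTNF libraries and 2 and 4 in the WT libraries. Those with 2 mismatches numbered 1 and 4 in TghuTNF and 4 and 2 in WT. The source of these mismatched reads was not tested. The absence of an entry for miR-211 gives no limit on its level, since the files name the number of tested miRNAs, 707, and not which they were.

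**Figure D3:**
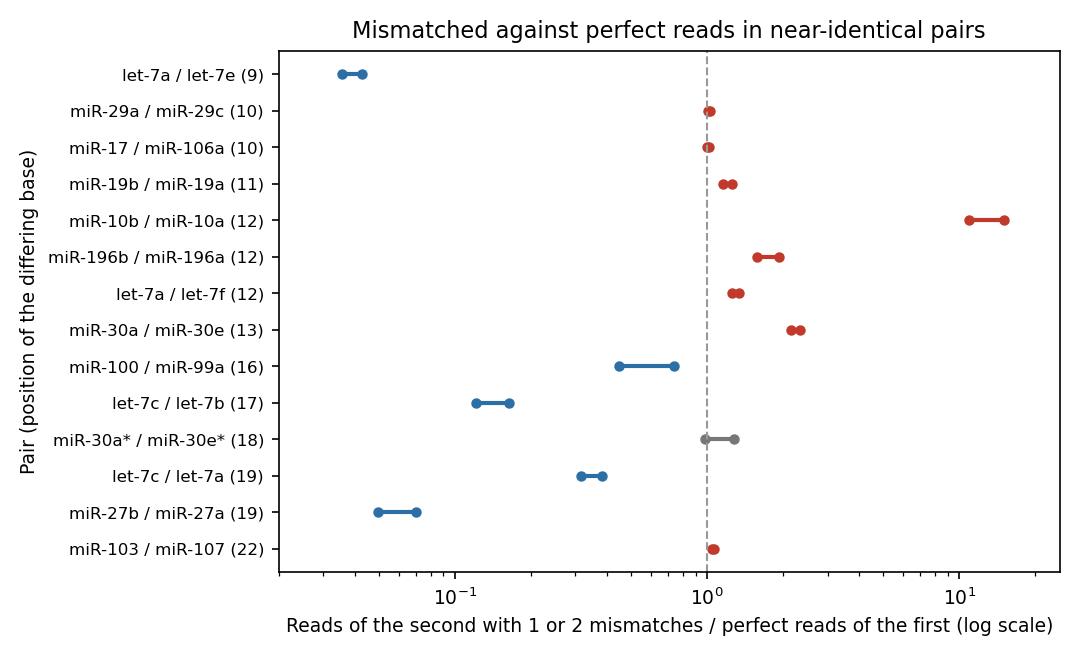
For 14 pairs of miRNAs that differ at 1 base, reads of the second with 1 or 2 mismatches divided by perfect reads of the first (log scale), with the lowest and highest of the 4 libraries as points joined by a line and the position of the differing base in brackets. Red pairs are at or above 1 in every library, blue pairs below 1 and the grey pair on both sides; let-7c and let-7b, at position 17 where miR-204 and miR-211 differ, lie at 0.121 to 0.164.

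Of the 6 miRNAs whose pattern over the 4 libraries was nearest to that of miR-204, 4 came from the miR-322 and miR-503 cluster on the X chromosome, known for restraining the cell cycle. Likeness was the Euclidean distance between mean-centred log2 CPM over the 4 libraries, among 277 tested miRNAs with at least 50% perfect matches. The nearest was miR-503 (distance 0.670), at 1.74 and 1.02 CPM in TghuTNF replicates 1 and 2 and at 6.45 and 7.27 CPM in WT replicates 1 and 2. miR-335-3p, from an intron of the imprinted gene Mest, was next (0.855), at 1.85 and 1.07 CPM in TghuTNF and 19.4 and 22.1 CPM in WT. miR-503* (1.06), miR-3475 (1.12), miR-322 (1.15) and miR-351 (1.18) followed. The seventh lay at 1.22, so no gap sets these 6 apart. Of the 277 candidates, 40 (14.4%) had a Pearson correlation with miR-204 above 0.9 over the 4 libraries.

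All 6, like miR-204, were lower in TghuTNF replicate 2 than in TghuTNF replicate 1. They were chosen for likeness over these same 4 libraries, so neither this order nor their fall in TghuTNF is independent of the choice. In level they spanned 0.735 ± 0.600 (miR-3475) to 24.4 ± 6.996 CPM (miR-322) in TghuTNF and 3.18 ± 0.755 to 86.3 ± 6.06 CPM in WT (SD, n = 2 each). miR-3475 was the least stable of them, and was 4.14-fold lower in TghuTNF with all libraries. Its log2 fold change was -1.815 without WT replicate 1, -3.39 without TghuTNF replicate 1 and -1.46 without TghuTNF replicate 2. The log2 fold change of miR-351 was -1.75 with all libraries and -2.42 without TghuTNF replicate 1. The likeness is a description of 4 libraries, and it includes the difference between genotypes.

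**Figure D4:**
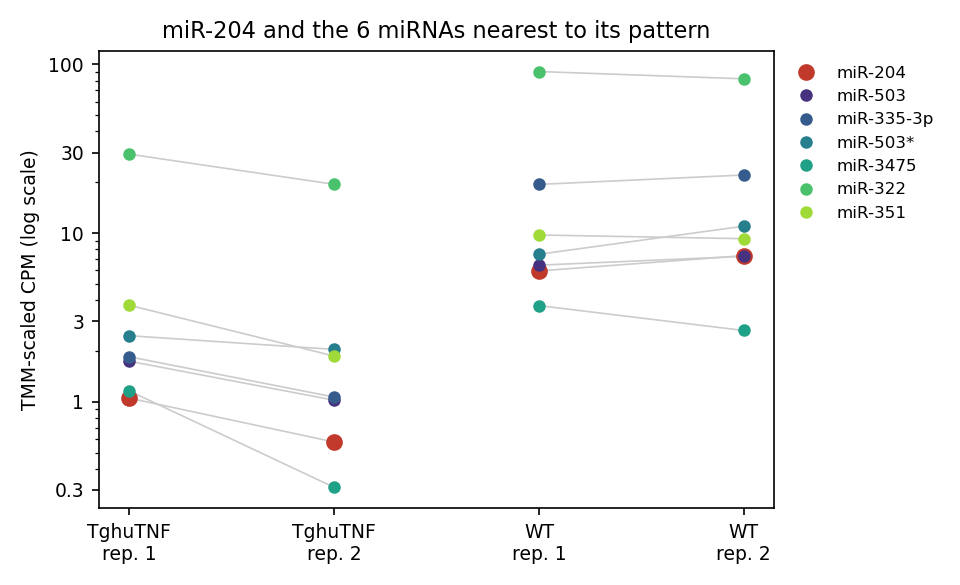
TMM-scaled CPM (log scale) of miR-204 and the 6 miRNAs nearest to its pattern in the 2 TghuTNF and 2 WT libraries; grey lines join the replicates of a genotype. Each of the 7 is lower in both TghuTNF libraries than in both WT libraries, and lower in TghuTNF replicate 2 than in TghuTNF replicate 1. The 6 were chosen for likeness to this pattern.

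Of the other miRNAs known to target Runx2, 1 fell and most did not pass the test. All 10 miRNAs of this list were listed in the files and 9 could be tested, of which 0 rose, 1 fell and 8 did not pass edgeR's quasi-likelihood test at an adjusted p of 0.05, against 13.3% called over all tested miRNAs. Their median log2 fold change was 0.12. The 1 that fell, miR-135a, had 4 and 4 reads in TghuTNF replicates 1 and 2 against 285 and 371 in WT replicates 1 and 2. Its perfect matches numbered 3 and 0 in TghuTNF and 1 and 7 in WT, only 1.66% of its reads, so its fall is uncertain. miR-135a passed the filter only through WT, since its TghuTNF levels of 0.145 and 0.178 CPM lay below the filter's 0.404 CPM. Its call is therefore not independent of its being high in WT. Counting perfect matches alone, miR-135a was below the filter and 0 of the 8 members left passed edgeR's test (1 had an unadjusted p under 0.05).

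Among the members that did not pass, miR-34c was the most abundant, at 23509.2 ± 485.8 CPM in TghuTNF and 23929.7 ± 1424.3 CPM in WT (SD, n = 2 each). miR-133a, a muscle miRNA, stood at a log2 fold change of -0.98 ± 0.38, and miR-137 at 0.62 ± 0.42 (SE). miR-23a (0.12 ± 0.18) and miR-30c (0.21 ± 0.25) lay close to 0. miR-205 was below the filter, with 1 and 1 reads in the TghuTNF libraries against 2 and 4 in the WT libraries.

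Of 16 different tested miRNAs known to act on the adipocyte and osteoblast fates, 3 passed (18.8%), where 13.3% did over all tested miRNAs. Of 8 miRNAs that promote adipocyte differentiation, 1 rose, 1 fell and 6 did not pass (median log2 fold change -0.025). Among these 8, miR-30a and miR-30d had nearly the same read counts. The reads of miR-107, of which 0.151% were perfect, were similar in number to those of miR-103. The members of these pairs may not be separate measurements, which limits the shares and the median above. miR-378, which is linked to lipid storage, stood at 1254.8 and 1212.4 CPM in the TghuTNF libraries against 3543.4 and 2764.3 CPM in the WT libraries, a 2.56-fold fall (edgeR adjusted p = 0.00077). miR-375 rose 8.21-fold from a low level, with 45 and 42 reads in the TghuTNF libraries against 4 and 5 in the WT libraries (edgeR adjusted p = 0.0025, and 0.058 without WT replicate 2). miR-375 passed the filter only through TghuTNF, since its WT levels of 0.244 and 0.184 CPM lay below the filter's 0.404 CPM. Its call, 1 of the 3 above, is therefore not independent of its being high in TghuTNF. miR-143, the most abundant of this list, stood at -0.11 ± 0.14 on the log2 scale.

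Of 4 tested miRNAs that restrain adipocyte differentiation, 0 passed with edgeR, limma-voom or DESeq2, and 0 had an unadjusted p under 0.05 in edgeR. The most abundant, miR-27b, stood at -0.082 ± 0.16. Of 5 tested miRNAs that promote the osteoblast fate, 1 fell and 4 did not pass (median 0.28). That one was miR-335-5p, which represses the Wnt inhibitor Dkk1, with 50 and 16 reads in the TghuTNF libraries against 590 and 389 in the WT libraries. Its log2 fold change was -4.28 ± 0.53 (edgeR adjusted p = 0.00054), -3.48 without WT replicate 1 and -5.19 without TghuTNF replicate 1. miR-196a, the most abundant, stood at 0.23 ± 0.17, and at 1.03 ± 0.26 (edgeR adjusted p = 0.031) when perfect matches alone, 23.0% of its reads, were counted.

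**Figure D5:**
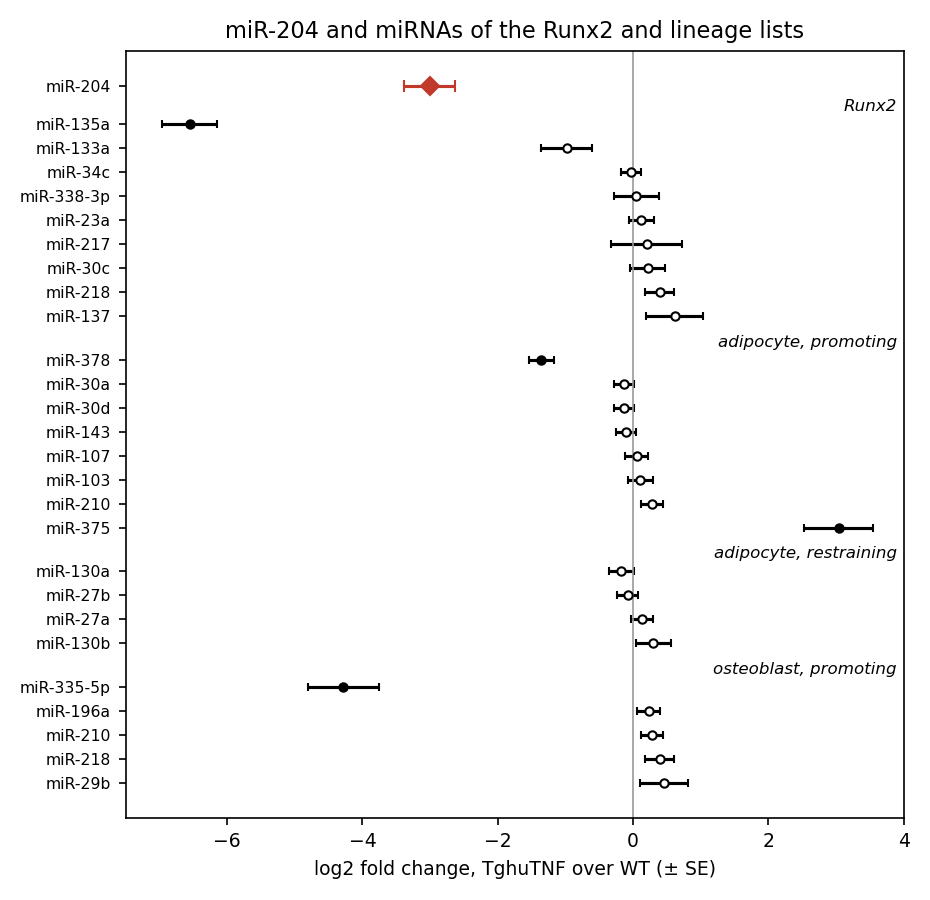
Fitted log2 fold change (TghuTNF over WT, with SE as bars) of miR-204, shown as a red diamond and not tested, and of the tested members of the Runx2, adipocyte and osteoblast lists. Filled points passed edgeR's test at an adjusted p of 0.05 and open points did not; miR-204 lies at -3.01, and most list members lie near 0.

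Of 115 tested miRNAs whose hairpins, like Mir204, lie in introns of coding genes on the same strand, 4 rose and 9 fell (11.3%, close to the 13.3% over all tested miRNAs), with a median log2 fold change of -0.024. Of 205 outside such introns, 15 rose and 13 fell, with a median of 0.22. A further 8 had hairpins of both kinds, and 114 could not be matched to a RefSeq hairpin by name, so these counts cover part of the miRNAs. The classes were not compared with a test.

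The cultures carried the miRNAs of mesenchymal cells, and lower levels of those of other cell types. Over all tested miRNAs 13.3% were called, and the cell type lists are short. The number of calls in each list is therefore given as a description and not read as a result about a cell type. The 8 mesenchymal names summed to 291914.4 to 315977.1 CPM in TghuTNF and 286745.2 to 300216.6 CPM in WT; miR-22 rose, miR-214 fell and 6 did not pass, and miR-21 was the most abundant. Of 4 miRNAs of the eye and pigment cells, the lineages best known for miR-204 and miR-211, miR-184 rose 2.30-fold (edgeR adjusted p = 0.041, and 0.43 without WT replicate 2) and 3 did not pass. Their sum was 199.5 to 251 CPM in TghuTNF and 112 to 178 CPM in WT, most of it from miR-182 and miR-183, neither of which passed.

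Markers of further cell types were also present. Both arms of the endothelial miR-126 summed to 66.7 to 68.8 CPM in TghuTNF and 108 to 127 CPM in WT; miR-126-3p fell, with a log2 fold change of -0.79 (edgeR adjusted p = 0.035), and was no longer called without WT replicate 1 (-0.67, adjusted p = 0.30) or WT replicate 2 (-0.91, adjusted p = 0.10). The 4 tested epithelial miRNAs summed to 30.3 to 36.5 CPM in TghuTNF and 67.6 to 70.6 CPM in WT. Most of that sum was miR-203, which fell. The 3 that did not pass had log2 fold changes of 0.30 to 0.46, and the median of the 4 was 0.37. Of these 3, miR-141 had 5 to 14 reads per library. Only 6.02% of the reads of miR-200b were perfect, and their numbers were close to those of miR-200c, so these members may not be separate measurements. The 5 tested muscle miRNAs, led by miR-206, summed to 1783.6 to 2055.4 CPM in TghuTNF and 2426.4 to 3008.4 CPM in WT. Of these, 0 passed with the main edgeR setting, limma-voom or DESeq2, and 5 had an unadjusted p under 0.05 in edgeR. Under other edgeR settings miR-206 passed, with a replicate block (adjusted p = 0.014) and with no filter (0.037). miR-499 went the other way from the sum, with a log2 fold change of 1.20. It had 40 and 25 reads in the TghuTNF libraries against 6 and 19 in the WT libraries. The read counts of miR-133a and miR-133b, both among the 5, are nearly the same and are not separate measurements.

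The 3 tested blood cell miRNAs, led by miR-142-3p, summed to 21.2 to 28.3 CPM in TghuTNF and 6.06 to 15.8 CPM in WT, where miR-223 rose (edgeR adjusted p = 0.0026, and 0.051 without WT replicate 2). miR-223 had 10 and 8 reads in WT replicates 1 and 2, and at 0.294 CPM WT replicate 2 lay below the filter's 0.404 CPM. The defining miRNAs of other cell types were at or near 0 in several cases: the red cell miRNA miR-144 had 0 and 0 reads in TghuTNF and 1 and 2 in WT, and the neuronal miR-124 had 3 and 1 reads in TghuTNF and 0 and 0 in WT. The 4 tested neural miRNAs summed to 396 to 428 CPM in TghuTNF and 248 to 289 CPM in WT, led by miR-129-5p, with miR-129-3p and miR-138 higher; both lost their calls without WT replicate 1 (edgeR adjusted p = 0.096 and 0.29) or WT replicate 2 (0.14 and 0.051). miR-214 moved from a log2 fold change of -0.93 to -0.53 without WT replicate 1. It was not called by limma-voom (adjusted p = 0.054). In edgeR it was not called with perfect and 1-mismatch matches (0.059) or a mean CPM of at least 100 (0.10). It stayed called with DESeq2 (0.010) and with perfect matches only in edgeR (0.031). miR-138 lost its call in edgeR with perfect matches only (0.071) or with perfect and 1-mismatch matches (0.055). It kept it with DESeq2 (0.0085) and limma-voom (0.033). The part of these cell types in the level of miR-204 was not tested.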

How the data were processed

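The authors matched 37-base reads to 707 mature mouse miRNAs using mimap (version 3d; per the file headers), where the hash length was 9 and up to 2 mismatches were allowed. What they deposited is an unnormalised count of reads per miRNA, and beside it the part of that count with 0, 1 and 2 mismatches. Not given in the sources used here: trimming, the miRBase release, the build, and how reads with several matches were treated.

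Of 590 listed miRNAs, filterByExpr (minimum count 10, about 0.404 CPM) kept 442. miR-204 lay above that level in every library. Counts were scaled with TMM and tested between genotypes in edgeR 4.0.16 (quasi-likelihood, two-sided, no other covariate, R 4.3.3), with Benjamini-Hochberg adjustment over the 442. Alternatives used limma 3.58.1 (voom) and DESeq2 1.42.0, another scaling, other filters, perfect matches, a replicate block and leaving out each library. The test was checked on simulated counts. p-values measure the spread between 2 cultures a genotype. The SE of an edgeR log2 fold change was its absolute value divided by the square root of the quasi-likelihood F statistic. It therefore restates that statistic and is not a separate measure of spread.

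Members and lists were chosen with earlier results of these data known. Named miRNAs were miR-204, the 6 nearest patterns, its neighbours in level, the called and the most abundant members of each list, and the 5 most abundant pairs that differ at 1 base. Sequences and positions are from RefSeq (GRCm38.p6), introns from GENCODE (GRCm38). Members named outside this rule (miR-133a, miR-137, miR-23a, miR-30c, miR-30d, miR-205, miR-103, miR-107, miR-133b, miR-499, miR-183, miR-141, miR-200b, miR-200c, miR-144 and miR-124) were chosen after their values were seen.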

Additional observations from a re-analysis of the deposited data

How the results depend on the processing

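The log2 fold change of miR-204 was negative in every setting that gave a value, from -3.60 to -2.69 when 1 library was left out and -3.03 with a replicate block. A mean CPM of at least 100 removes miR-204. The 59 calls over all miRNAs were 93 with no filter, 14 with a mean CPM of at least 100, 69 with DESeq2 and 49 to 153 when 1 library was left out, the most without TghuTNF replicate 1; each of these fits has 1 lone library, assumed to vary like the others. The 1 called member of the Runx2 list became 0 with a mean CPM of at least 100 and with perfect matches only, and 1 to 2 when 1 library was left out. The 3 calls of the adipocyte and osteoblast lists became 1 with a mean CPM of at least 100, and 2 to 4 when 1 library was left out. miR-34c, never called, changed sign to 0.009 with perfect and 1-mismatch matches and to 0.033 without WT replicate 2 (-0.085 to 0.033 over the libraries left out). Causes were not tested. With a replicate block the calls were 87, 1 and 3. No label says that the numbers pair cultures, and deviations of same-numbered libraries correlated at -0.088. The share of perfect matches of miR-211 could not be computed, since it had no entry. For 27 other named miRNAs, 270 of 307 values kept their direction and side of the threshold, 17 lost and 18 gained a call. At 13 reads, the lowest count limits the size of the fall more than its direction.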
